A study of Mus musculus with 9 samples.

Results

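The regions described here carried H3K27me3, trimethylation of lysine 27 on histone H3, in stretches of the mouse genome far from any protein-coding gene. They were the merged regions on chromosomes 1 to 19 that had an interval in 2 or more of 8 libraries and whose nearest protein-coding gene span on mm10 was 100 kb or more away. They numbered 636, of 12274 autosomal regions called in 2 or more libraries, of 15836 autosomal regions and of 18556 merged regions in all. A region was called in a library where at least 1 bp of it lay under an interval of that library. The other 11638 autosomal regions called in 2 or more libraries served for comparison.

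The chromatin came from uncultured bone marrow cells of female mice that had received a transplant, enriched as lineage-negative cells with c-Kit on their surface, a fraction rich in hematopoietic stem and progenitor cells. RH MET and RH VEH cells carried Dnmt3a fl-R878H/+ and Mx1-cre, and came from mice given metformin or vehicle for 1 month. WT MET and WT VEH cells were Dnmt3a+/+, also with Mx1-cre, and came from mice given metformin or vehicle for the same time. Each of the 4 groups had 2 libraries, and 1 input library was sequenced, whose intervals were not analysed here. Mx1-cre is driven by an interferon-inducible promoter that is active in blood cells and in other tissues, and the labels do not say which share of the marrow came from donor cells. Dnmt3a encodes a de novo DNA methyltransferase, and metformin is a biguanide used against diabetes. At markers, the mark was absent in all 8 libraries from the spans of Ptprc, Runx1, Itgam, Actb and Gapdh, and covered between 59.7 and 100% of Cd3e, a T cell gene. The span of Kit, the marker used for enrichment, had an interval in 5 libraries, which covered at most 8.58% of it.

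H3K27me3 is placed by Polycomb repressive complex 2 and is read by Polycomb repressive complex 1 at silenced genes. In mammals the complexes gather at CpG islands, short stretches rich in CG dinucleotides, above all at genes of embryonic patterning, and the mark can spread over long domains around them. Gene deserts hold few or no protein-coding genes but many long non-coding RNA (lncRNA) genes, microRNA (miRNA) genes and distant enhancers, and deserts often flank developmental transcription factors.

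Of 6 miRNA genes that lay in these regions, 4 had a mature sequence in the RefSeq table of GRCm38.p6, the assembly of mm10. The sequences are shown because all 6 miRNA genes lay whole inside a marked region. The seed, bases 2 to 8 from the 5′ end, is in capitals, and the seeds all differ. miR-137 is known from neurons, and miR-125b from the control of hematopoietic stem cells and myeloid cells.
miR-137-5p: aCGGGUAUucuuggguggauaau
miR-137-3p: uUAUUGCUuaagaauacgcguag
miR-125b-5p: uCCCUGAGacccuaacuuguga
miR-125b-1-3p: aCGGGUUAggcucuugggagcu
miR-466j: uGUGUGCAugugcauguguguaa
miR-3072-5p: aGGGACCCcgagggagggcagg
miR-3072-3p: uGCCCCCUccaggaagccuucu

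Promoter windows, from 250 bases before to 50 after the annotated start, came from the same table. These 5 windows are shown 5′ to 3′ on the gene's strand, with each CG dinucleotide in capitals (CG reads the same on both strands and was the only motif searched). They belong to lncRNA genes whose window lay whole inside a region: the 3 with the most CG in regions called in all 8 libraries, and a pair with fewer, Morrbid and Lncenc1. The Tunar window lies on the plus strand at chr12:105336743-105337042, the Gm13652 window on the minus strand at chr2:75137926-75138225 and the 2600014E21Rik window on the plus strand at chr2:75137405-75137704. The Morrbid window lies on the minus strand at chr2:128429302-128429601 and the Lncenc1 window on the plus strand at chr13:97434720-97435019. Counted by letters, they hold 30, 23, 21, 8 and 4 CG. The median is 4 CG over lncRNA windows inside the regions and 8 over all autosomal genes with a window. At least 1 CG is present in the window of 94.8% of all autosomal genes with a window.
Tunar: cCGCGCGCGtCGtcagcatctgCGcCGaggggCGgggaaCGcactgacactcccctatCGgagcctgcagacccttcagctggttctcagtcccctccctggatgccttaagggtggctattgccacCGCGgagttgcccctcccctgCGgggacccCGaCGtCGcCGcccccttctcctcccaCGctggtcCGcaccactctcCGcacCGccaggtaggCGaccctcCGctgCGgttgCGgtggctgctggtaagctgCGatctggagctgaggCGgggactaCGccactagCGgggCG
Gm13652: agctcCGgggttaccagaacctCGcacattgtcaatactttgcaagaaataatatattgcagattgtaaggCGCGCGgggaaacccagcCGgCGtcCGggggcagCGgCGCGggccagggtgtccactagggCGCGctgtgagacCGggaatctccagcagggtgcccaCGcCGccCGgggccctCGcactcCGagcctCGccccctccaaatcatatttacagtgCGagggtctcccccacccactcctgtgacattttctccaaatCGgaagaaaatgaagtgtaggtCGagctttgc
2600014E21Rik: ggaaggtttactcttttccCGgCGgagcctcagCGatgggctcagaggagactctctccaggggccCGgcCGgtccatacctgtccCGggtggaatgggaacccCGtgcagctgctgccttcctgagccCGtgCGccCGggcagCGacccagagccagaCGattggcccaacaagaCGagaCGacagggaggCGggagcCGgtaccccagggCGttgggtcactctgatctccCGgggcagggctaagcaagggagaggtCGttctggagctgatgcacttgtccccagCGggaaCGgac
Morrbid: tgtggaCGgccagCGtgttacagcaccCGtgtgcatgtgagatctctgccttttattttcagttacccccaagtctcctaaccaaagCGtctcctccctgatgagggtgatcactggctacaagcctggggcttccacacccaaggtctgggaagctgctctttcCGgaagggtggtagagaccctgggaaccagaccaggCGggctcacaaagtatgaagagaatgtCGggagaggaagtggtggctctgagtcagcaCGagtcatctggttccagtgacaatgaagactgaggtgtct
Lncenc1: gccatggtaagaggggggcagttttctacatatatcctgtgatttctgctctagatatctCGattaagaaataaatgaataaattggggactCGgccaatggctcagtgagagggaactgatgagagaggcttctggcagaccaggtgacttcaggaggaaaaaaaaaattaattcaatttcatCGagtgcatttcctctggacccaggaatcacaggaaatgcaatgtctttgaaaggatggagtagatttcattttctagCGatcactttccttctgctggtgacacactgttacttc

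The 636 regions were of middling width and low summit. Their merged width had a median of 9.40 kb (quartiles 6.00 and 15.0 kb, range 0.400 to 90.2 kb), against a median of 11.4 kb in the other regions. They spanned 7.79 Mb in all. Summit height is the authors' score for the highest point of an interval, a whole number without a stated unit, and was therefore ranked within each library. The percentile is the rank of a height among that library's autosomal intervals, as a share of their number, and tied heights take their mean rank. The mean percentile over the libraries that called a region had a median of 25.6 in the 636 regions and 48.2 in the other regions. The highest single summit was 76 in these regions and 162 in the others. Within a library, 83.5% of called regions consisted of a single interval, against 79.7% of the others, and the most intervals seen in a region in a library was 8, against 20.

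The same contrast held inside every library. Intervals in these regions had a median width of 5.80 ± 1.43 kb, against 7.33 ± 1.45 kb in the other regions (SD, n = 8 libraries). The difference of -1.53 ± 0.149 kb was negative in all 8 libraries (exact sign-flip permutation over libraries, two-sided p = 0.0078, the smallest that 8 libraries allow; Benjamini-Hochberg p = 0.0104 over 4 measures). The median summit percentile of intervals was 28.2 ± 3.80 in these regions and 51.9 ± 1.40 in the others, a difference of -23.7 ± 2.99 with the same exact p. A library called 61.5 ± 14.2% of these regions and 77.9 ± 8.48% of the others, a difference of -16.3 ± 6.27 percentage points with the same exact p. Intervals covered a median of 59.9 ± 14.2% of a called region here and 66.7% of one of the other regions, lower in 7 of 8 libraries (exact p = 0.0156, adjusted p = 0.0156). The contrast rested mostly on regions that overlap genes. Against the 3446 other regions that overlapped no protein-coding gene, a comparison added after the data were seen, the summit percentile differed by -5.96 ± 3.75 (28.2 here, 34.1 there; exact permutation, adjusted p = 0.0417). Against those regions the interval width differed by -0.388 kb (adjusted exact permutation p = 0.0312) and the share called by -2.60 points (61.5% here, 64.1% there; adjusted exact permutation p = 0.0625).

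Outside genes, the values were highest under 10 kb from a gene and changed less beyond. The share of regions called in all 8 libraries was 63.7% where a region overlapped a protein-coding gene. It was 30.8% under 10 kb from a gene, 26.4% at 10 to 50 kb, 26.2% at 50 to 100 kb, 23.7% at 100 to 200 kb and 26.1% at 200 kb or more. The median percentile of a region's highest summit averaged 69.7 ± 1.76 over the 8 libraries at regions that overlap genes (SD). It was 39.9 ± 2.25 under 10 kb, 35.0 ± 1.93 at 10 to 50 kb and 34.1 ± 2.22 at 50 to 100 kb. In the farthest classes it was 33.1 ± 4.72 at 100 to 200 kb and 32.2 ± 4.25 at 200 kb or more. The spread between libraries was wider in the 2 farthest classes, with lows of 22.2 in WT VEH 1 at 100 to 200 kb and 24.5 in RH VEH 2 at 200 kb or more. The 3 regions just inside lay 100.010 kb from Pitx1, 100.074 kb from Nectin1 and 100.161 kb from Gpr26 and were called in 8, 6 and 5 libraries. The 3 just outside lay 99.942 kb from Rassf10, 99.502 kb from Tnrc6c and 99.491 kb from Cryba4 and were called in 2, 8 and 7 libraries.

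**Figure D1:**
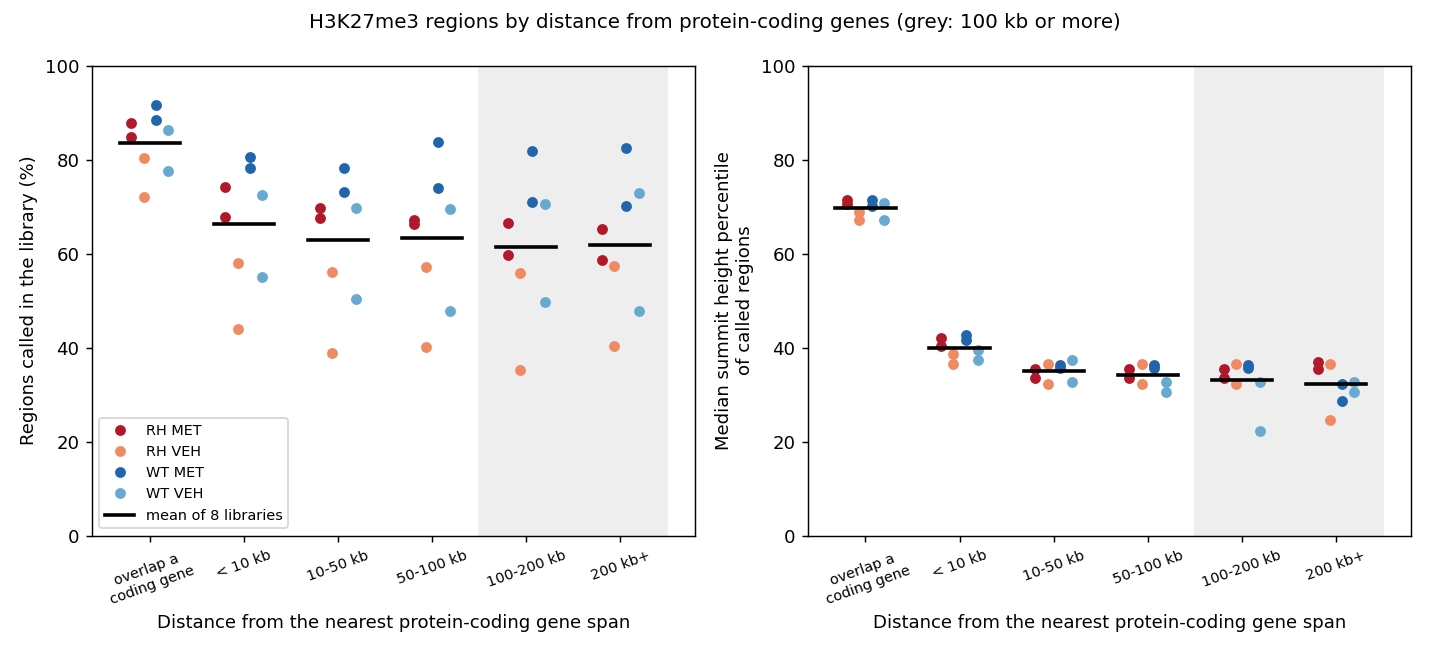
Share of regions called (left, %) and median percentile of a region's highest summit (right, 0 to 100) by distance from the nearest protein-coding gene span, with 1 point per library and a black line at the mean of 8 libraries. Regions that overlap genes stood apart at 83.6% called, and the mean stayed between 61.3 and 66.3% in every class outside genes, the 2 shaded ones included.

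Positions 100 kb or more from every protein-coding gene made up 680 Mb of the autosomes, and little of them was marked. Intervals covered 0.548 and 0.634% of this space in the RH MET libraries, 0.292 and 0.765% in RH VEH, 0.770 and 1.13% in WT MET, and 0.659 and 0.726% in WT VEH. The rest of the autosomes was covered to between 4.28% in RH VEH 1 and 9.07% in WT MET 2. Each library thus covered less of the far space than of the rest. The regions per Mb of far space ran from 0.325 on chromosome 10 and 0.341 on chromosome 1 to 1.69 on chromosome 5 and 1.99 on chromosome 9. Chromosome 5 held the most regions, with 66, ahead of chromosome 4 with 58, chromosome 2 with 57 and chromosome 13 with 55.

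Sharing between libraries was loose. All 8 libraries called 156 regions (24.5%), against 53.1% of the other regions, and 141 regions (22.2%) had an interval in only 2 libraries, against 12.2% of the others. Regions that overlap genes made most of this contrast. An interval in only 2 or 3 libraries was seen in 36.9% of the 636 regions and 13.9% of regions that overlap genes. The share was 31.3% under 10 kb from a gene, 35.5% at 10 to 50 kb and 35.1% at 50 to 100 kb. Regions called in all 8 libraries had a median width of 16.8 kb and a median summit percentile of 49.3, against 8.0 kb and 20.6 in those called in 2 to 7. Among regions called in all 8 libraries, those far from genes were as wide as the others (median 16.8 against 16.0 kb), with median summit percentiles of 49.3 against 73.7. Their summit positions were spread over a median of 1.77 kb between libraries, against 0.864 kb in the others. Regions called in all 8 libraries that lay nearer to genes without overlap were much like the far ones. Their median percentiles were 52.4 under 10 kb, 55.3 at 10 to 50 kb and 55.4 at 50 to 100 kb. Their summit spreads were 2.14, 1.61 and 2.03 kb, against 0.8 kb in regions that overlap genes. Of the 59 regions called in 7 libraries, RH VEH 1 was the absent library in 29 and WT VEH 1 in 13. RH VEH 1 had the fewest intervals of all libraries (11620, with a median height of 12) and called the fewest of these regions, and without it 185 regions were called in all of the other 7. Of the 141 regions called in only 2 libraries, 25 were called in WT MET 1 and WT MET 2, and WT MET 2, the library with the longest covered length, was 1 of the callers in 72. Pairs of libraries overlapped here by a Jaccard index of 0.577 within groups (4 pairs) and 0.548 between groups (24 pairs), against 0.776 and 0.757 over the other regions.

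**Figure D2:**
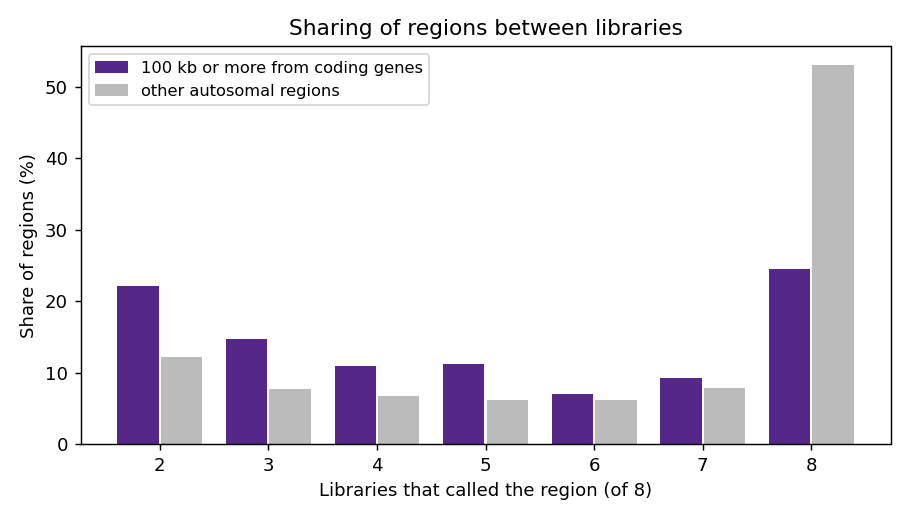
Share of regions (%) by the number of libraries that called them, for the 636 regions far from protein-coding genes (purple) and the 11638 other autosomal regions (grey). The purple bars peak at both ends, with 22.2% in 2 libraries and 24.5% in all 8, whereas 53.1% of the grey regions were called in all 8. Of the grey regions, 8192 overlapped a protein-coding gene.

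The regions lay in a minority of the gene deserts, and their counts per gap were not set against what gap length alone would give. The autosomes have 1390 gaps between neighbouring protein-coding genes that are long enough to hold such a region, and 262 of them held 635 of the 636. The remaining region lay between a chromosome end and Gdi2. Of the 262 gaps, 146 held a single region, while 35 held 5 or more and together 278 regions. The gap between Mn1, a transcriptional cofactor rearranged in leukemia, and Cryba4, a lens crystallin gene, held the most, with 19 regions over 264.2 kb, 5 of them called in all 8 libraries. The gap between Med13l, a Mediator subunit gene, and Tbx3, a T-box repressor of limb and mammary development, held 18 over 311 kb, 7 of them in all 8. The gap between Matn1, a cartilage matrix gene, and Ptpru, a receptor phosphatase gene, held 16 over 276.2 kb, also with 7 in all 8.

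The longest marked length lay in a gap edged by Pou3f1, a POU homeodomain factor of neural cells and Schwann cells. The gap between Rragc, which encodes a Rag GTPase of nutrient signalling, and Pou3f1 held 12 regions over 349 kb, and 8 of them were called in all 8 libraries. Pou3f1 was the nearest gene for 6 of the 12. Pou3f1 itself was called in all 8 libraries and Rragc in none. Some of the 12 merged regions adjoin: chr4:124426801-124517000 ends where chr4:124517001-124545600 begins. A count of regions is therefore not a count of separate domains. The widest of the 636 regions lay here, at chr4:124426801-124517000, 140.6 kb from Pou3f1. Intervals covered 54.0 and 49.8 kb of it in RH MET, 34.4 and 67.8 kb in RH VEH, 70.2 and 78.8 kb in WT MET, and 56.2 and 70.2 kb in WT VEH. The lowest value was that of RH VEH 1 and the highest that of WT MET 2, and its 2 RH VEH libraries spanned most of the range. Its summit percentile averaged 69.2. It overlapped 3 lncRNA genes, 1700057H15Rik, Gm31769 and Gm31830.

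Another gap with 12 regions lay between Rps24, a ribosomal protein gene, and Zmiz1, which encodes a coactivator of Notch1, but only 1 of its regions was called in all 8 libraries. That region, chr14:25268001-25281800, overlapped the lncRNA gene Zmiz1os1 and had summit heights of 17 and 17 in RH MET, 7 and 14 in RH VEH, 13 and 16 in WT MET, and 20 and 16 in WT VEH. Here WT VEH 1 was the highest library and RH VEH 1 the lowest. Another 3 gaps held 11 regions each: Npvf to Gm38821, Mtx2 to Gm50595 and Mki67 to Mgmt. Mtx2 neighbours the Hoxd cluster, whose genes lie on its other side, and its gap held the region chr2:75124401-75173200 around the promoters of Gm13652 and 2600014E21Rik printed above. Intervals covered 28.8 and 21.2 kb of that region in RH MET, 14.8 and 45.2 kb in RH VEH, 36.2 and 40.4 kb in WT MET, and 39.0 and 39.2 kb in WT VEH, with RH VEH at both ends of the range.

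Several other regions were wide. The region chr2:72635601-72708400, between Cdca7, a Myc target gene, and Sp3, a zinc finger factor gene, was 72.8 kb wide, with a mean summit percentile of 42.7. It was covered over 45.4 and 51.6 kb in RH MET, 28.6 and 61.0 kb in RH VEH, 65.2 and 67.2 kb in WT MET, and 41.0 and 50.6 kb in WT VEH. Both WT MET libraries were above the other 6, with RH VEH 2 the next. Between Chst1, a sulfotransferase gene, and Syt13, a synaptotagmin gene, a region 66.4 kb wide had a mean summit percentile of 27.2. Intervals covered 24.4 and 16.2 kb of it in RH MET, 8.20 and 38.4 kb in RH VEH, 48.0 and 61.4 kb in WT MET, and 13.4 and 26.8 kb in WT VEH, so that both WT MET libraries were again the highest. The region between Dysf and Cyp26b1, which encodes an enzyme that degrades retinoic acid, was 53.0 kb wide, with a mean summit percentile of 36, and was missing only in RH VEH 1, with between 6.80 and 45.8 kb in the other 7 libraries.

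**Figure D3:**
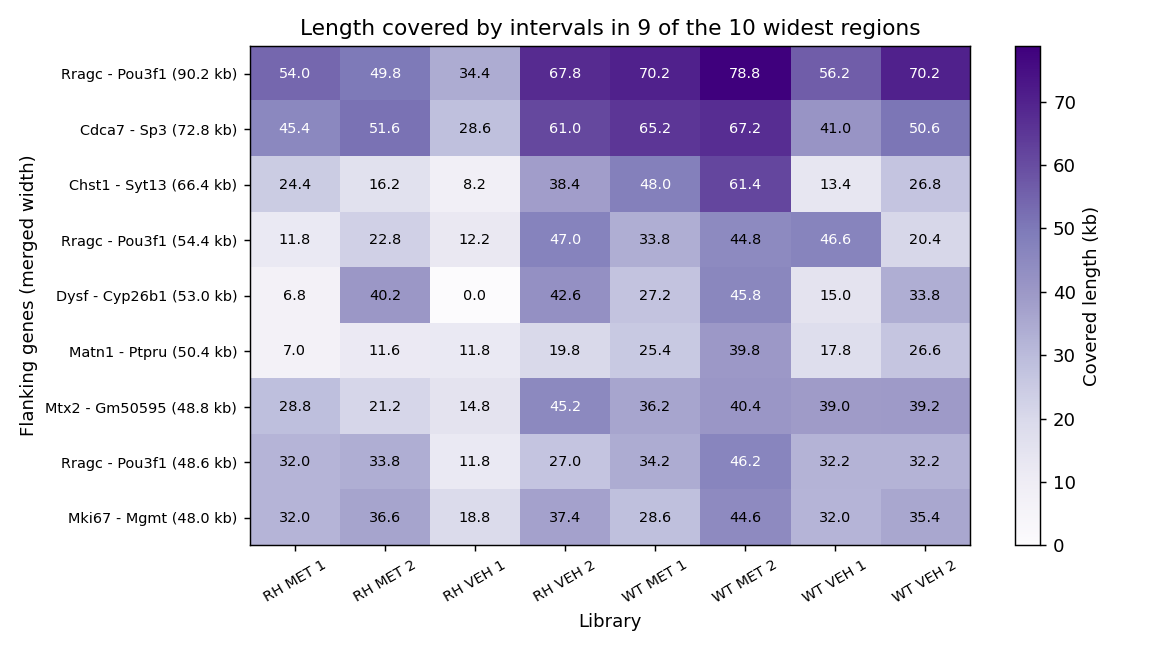
Length covered by intervals (kb, colour and number) in 9 of the 10 widest regions, with 1 row per region named by its flanking genes and merged width and 1 column per library. RH VEH 1 has the lowest value in 7 of the 9 rows, and 1 of its cells is at 0.

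Of the 10 highest summits, some lay in gaps edged by developmental factors and others did not. By mean percentile among regions called in all 8 libraries, the first was chr13:3355001-3365800 near Gdi2 (87.8), followed by the regions between Eya1, a transcriptional coactivator gene of ear and kidney development, and Msc, a bHLH factor gene of muscle precursors (87.0), and between Tfap2c, an AP-2 factor gene of germ cells and trophoblast, and Bmp7, a signalling gene (86.5). The Eya1 to Msc region, chr1:14497801-14512600, had heights of 66 and 53 in RH MET, 33 and 37 in RH VEH, 55 and 63 in WT MET, and 41 and 48 in WT VEH. In height all 4 MET libraries were above the 4 VEH libraries, but in percentile RH VEH 1 was next to the highest, with 90.6 against 91.7 in RH MET 1. The Tfap2c to Bmp7 region, chr2:172697801-172743800, had heights of 61 and 55 in RH MET, 27 and 31 in RH VEH, 67 and 67 in WT MET, and 37 and 61 in WT VEH, where WT VEH 2 lay among the MET libraries. Heights are not adjusted between libraries as far as the sources used here say, and the median height of all intervals was 12 in RH VEH 1 against 17 in WT MET 2. The other 7 lay in the gaps Rasgef1b to Vamp9, Mc2r to Tcf4, Klf14 to Mkln1, F2rl3 to Isx, Isl1 to Parp8, Ppp1r14bl to Ogfrl1 and Ythdf3 to Cypt12. The region between F2rl3 and Isx, an intestinal homeobox gene that no library called, was nearer to F2rl3, at 584.9 kb, than to Isx, at 1515 kb. The farthest region called in all 8 libraries, between the neuronal adhesion gene Tenm3 and Aga, lay 1392 kb from Tenm3 at chr8:50914601-50919000. It was 4.40 kb wide, and its heights were 13 and 12 in RH MET, 7 and 11 in RH VEH, 14 and 15 in WT MET, and 14 and 12 in WT VEH.

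The genes at the edges of these deserts were often marked themselves. Of the 262 gaps with regions, 201 (76.7%) had a flanking protein-coding gene called in all 8 libraries, against 63.8% of the 1128 gaps without. By gap length the shares were 79.1 against 60.9% at 200 to 400 kb and 79.6 against 66.4% at 400 to 800 kb, but 68.3 against 67.1% in longer gaps. The nearest protein-coding gene was called in all 8 libraries for 314 regions (49.4%), against 39.3% of the other 3446 regions that overlapped no protein-coding gene. It was called in no library for 35.5% of these regions and 45.6% of those others. These shares are descriptions, since neighbouring regions share a gap and its genes.

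Developmental transcription factors stood at the edges of 25.2% of the gaps with regions and 9.04% of the gaps without. The difference was seen at each gap length: 20.9 against 7.83% at 200 to 400 kb, 25 against 11.7% at 400 to 800 kb, and 31.7 against 8.83% in longer gaps. Of the 11638 other regions, 8192 overlapped a protein-coding gene, so the shares of regions below do not compare like with like. Homeobox factors flanked 57 regions (8.96%, against 3.01% of the other regions) in 23 gaps. Pou3f1 accounted for 12 of them, Irx5 for 9, Irx3 for 8 and Msx2 for 7. A homeobox factor was the nearest gene for 32 of the 57, and Pou3f1 for 6 of its 12. The 8 regions between Irx3 and Irx5, neural and heart patterning factors that are both called in all 8 libraries, covered 71.4 kb, yet none was called in all 8. Sox, forkhead and T-box factors flanked 49 regions (7.70%, against 1.62%) and were the nearest gene for 26. Tbx3 flanked 18 of the 49 and was nearest for 9. Sox9, the factor of cartilage and testis, flanked 6 and was nearest for 4. Foxa2, the factor of endoderm and floor plate, flanked 5 and was nearest for all 5. Zinc finger and nuclear receptor factors flanked 46 (7.23%, against 1.98%), among them Sall3 with 7 and Zfp703 and Prdm2 with 5 each. A factor of this family was nearest for 24 of the 46. The bHLH factors of neural and mesodermal tissue flanked only 8 regions (1.26%, against 0.988%) and were nearest for 6. Hes1, a Notch target gene, flanked 5 of the 8 and was nearest for 3.

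In other families the shares of gaps were lower, alike or higher, and the shares of regions did not always go the same way. Synaptic and neuronal adhesion genes flanked 2.29% of the gaps with regions and 5.94% of those without, channel and neurotransmitter receptor genes 4.2 and 7.54%, and cadherins and protocadherins 1.15 and 2.93%. Axon guidance genes flanked 2.67% of the gaps with regions and 2.66% of those without. WNT, FGF, BMP and TGF-beta genes flanked 3.82 and 2.39%. The shares of regions carry the limit given above, since most of the other regions overlapped a protein-coding gene. By regions, synaptic and neuronal adhesion genes flanked 1.10% of these and 1.14% of the other regions, channel and neurotransmitter receptor genes 4.56 and 3.28%, and cadherins and protocadherins 0.943 and 0.464%. Axon guidance genes flanked 2.2% of these regions and 0.928% of the others, and WNT, FGF, BMP and TGF-beta genes 2.04 and 1.51%. No region was flanked by an odorant, pheromone or taste receptor gene, although such genes flanked 1.95% of the gaps without regions.

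**Figure D4:**
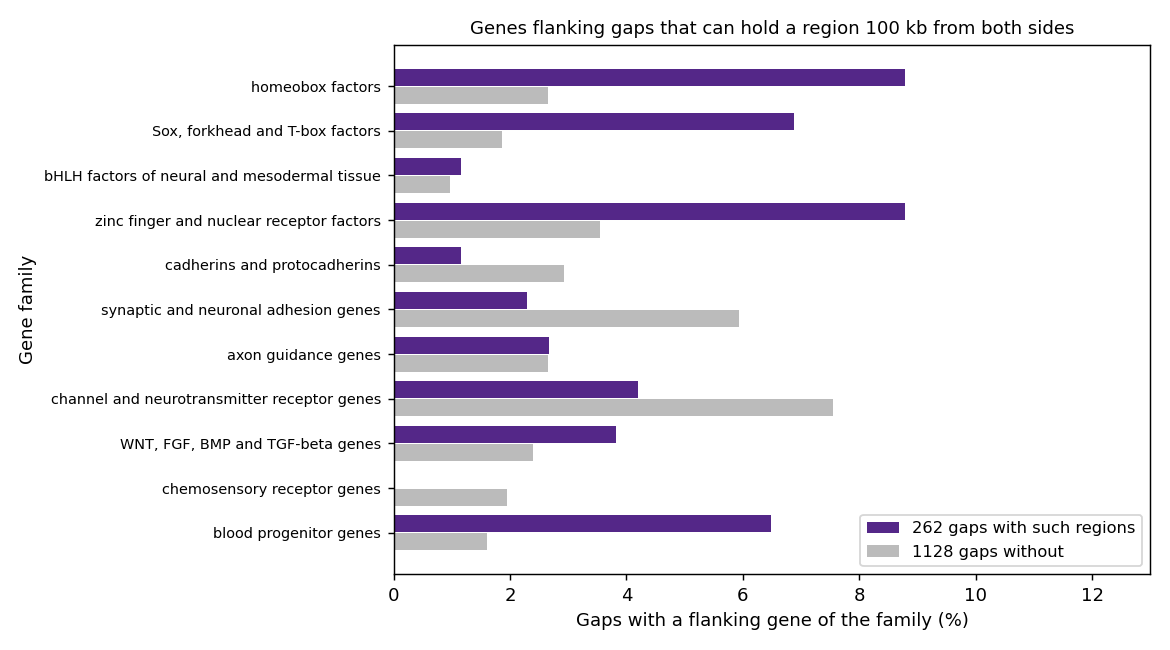
Share of gaps (%) with a flanking gene of each of 11 gene families, for the 262 gaps that held regions (purple) and the 1128 gaps of sufficient length that held none (grey). Homeobox factors reached 8.78% of the gaps with regions against 2.66% of the others, and synaptic and neuronal adhesion genes 2.29 against 5.94%.

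Genes of a list for blood stem cells and lineages flanked 34 regions (5.35%, against 1.28% of the other regions) in 17 gaps (6.49%, against 1.60% of the gaps without). Here too the shares of regions do not compare like with like, since most of the other regions overlapped a protein-coding gene. A gene of the list was the nearest one for 14 of the 34. Bcl11a, Bcl11b, Gata3, Ikzf2, Klf4, Klf12, Klf14 and Mecom were also counted among the zinc finger factors above, so these shares overlap. The regions named here for their blood genes, like those over lncRNA genes of known role, antigen receptor loci and the 5 that separate classes of libraries, were picked after their values were seen. The most, 7 over 138.8 kb, lay between Runx1, a factor required for the emergence of blood stem cells, and Setd4, and 4 of them were called in all 8 libraries. Neither Runx1 nor Setd4 was called in any library, and all 7 regions were nearer to Setd4, the closest to Runx1 at 438.1 kb from its span. That region, chr16:93264201-93277400, had heights of 21 and 21 in RH MET, 12 and 24 in RH VEH, 23 and 33 in WT MET, and 19 and 23 in WT VEH, so that only RH VEH 1 and WT MET 2 stood apart. The gap between Slc24a2 and Mllt3, which encodes a maintenance factor of blood stem cells, held 3 regions, of which chr4:87428001-87436400 was called in all 8 libraries. Its heights were 20 and 20 in RH MET, 14 and 17 in RH VEH, 20 and 30 in WT MET, and 14 and 22 in WT VEH. Regions in gaps edged by Bcl11a, Mycn and Gata3 were called in 3 to 5 libraries each. The 4 in the gap edged by Csf3r, the receptor gene of granulocyte colony-stimulating factor, were called in 2 or 4. Of the Bcl11a regions, 1 lay 106.2 kb from that gene, and the others lay 1179 and 2034 kb from it, nearer to Fancl. Only 1 of the 4 Csf3r regions was nearer to Csf3r than to Grik3.

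Some regions had unmarked genes on both sides. Both flanking genes were called in no library in 13.4% of the gaps with regions, against 23.9% of the gaps without. Of the 635 regions in gaps, 90 (14.2%) lay between a pair of genes that no library called, and among the 155 called in all 8 libraries the number was 33 (21.3%). The gap with the most was that of Mki67, the proliferation marker gene, and Mgmt, a DNA repair gene, with 11 regions over 178.6 kb and 4 called in all 8. Its widest region, chr7:135822601-135870600, 106.2 kb from Mki67, was covered over 32.0 and 36.6 kb in RH MET, 18.8 and 37.4 kb in RH VEH, 28.6 and 44.6 kb in WT MET, and 32.0 and 35.4 kb in WT VEH. Apart from RH VEH 1 and WT MET 2 the libraries lay close together. The gap between Cdca7 and Sp3 held 6 regions over 180.6 kb, 4 of them in all 8, and the gap of Ubash3b, a phosphatase gene of lymphocytes and platelets, held 7 over 71.0 kb, 3 of them in all 8.

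A minority of the regions held a non-coding gene. A non-coding gene overlapped 267 regions (42.0%), against 33.4% of the other regions, and a lncRNA gene 244 (38.4%), against 27.2%. Pseudogenes overlapped 2.36% of these regions and 6.23% of the others, and snoRNA or snRNA genes 0.943 and 1.13%. The 245 lncRNA genes amounted to 31.5 per Mb of marked region, against 17.4 per Mb in the other regions. The other regions spanned 202 Mb, of which 159 Mb lay in regions that overlap protein-coding genes. These comparisons with the other regions are therefore not between like stretches. Spans of lncRNA genes made up 25.3% of the length of these regions and 10.4% of the far space as a whole. Of 1701 lncRNA genes whose promoter window lay 100 kb or more from every protein-coding gene, 129 (7.58%) had a window whole inside one of the 636 regions, which occupy 1.14% of that space. Regions called in all 8 libraries overlapped a lncRNA gene in 46.2% of cases, and those called in 2 to 7 libraries in 35.8%. Of the 245 lncRNA genes, 235 are known by a predicted or clone name only, and 59 lay whole inside a region.

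Few lncRNA promoters inside the regions were rich in CG. Counting a window as CpG-rich where its GC share was above 50% and its observed over expected CG above 0.6, 8 of 55 lncRNA genes (14.5%) in regions called in all 8 libraries had such a window, against 4 of 74 (5.41%) in regions called in 2 to 7. Of the 1533 lncRNA genes whose promoters lay in the far space outside every region, 23 (1.5%) had one. The share was 13.3% over all autosomal lncRNA genes and 36.5% over all autosomal genes with a window. The 8 genes in regions called in all 8 libraries included Tunar, Gm13652 and 2600014E21Rik, whose windows are printed above, and Lncpint and Mir100hg. The median window held 5 CG in regions called in all 8 libraries and 4 in regions called in 2 to 7, and the difference carries no test. The window with the most CG, 33, was that of 5730522E02Rik in a region called in 3 libraries, and that of 1700030C10Rik, with 29, lay in a region called in 2. The window of Lncenc1, with 4 CG, lay in a region called in all 8 libraries (chr13:97428801-97444800).

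Several lncRNA genes with a known role lay here. Tunar, a lncRNA of pluripotent and neural cells, had its promoter in chr12:105331801-105345600, with heights of 42 and 31 in RH MET, 15 and 24 in RH VEH, 45 and 46 in WT MET, and 28 and 46 in WT VEH. RH VEH 1 was again lowest, and WT VEH 2 equalled WT MET 2. Lncpint, a p53-induced transcript, started in chr6:31206001-31229800, between Klf14 and Mkln1, with a mean summit percentile of 84.4 and heights of 53 and 50 in RH MET, 24 and 40 in RH VEH, 47 and 60 in WT MET, and 42 and 45 in WT VEH. Rmst, a lncRNA of neuronal differentiation, had a region at 1 end of its span, called in 6 libraries, all but RH VEH 1 and WT VEH 1. Mirg, a transcript of the imprinted Dlk1 to Dio3 domain, lay partly in a region called in all libraries but WT VEH 1.

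Morrbid, a lncRNA that controls the pro-apoptotic gene Bcl2l11 in short-lived mouse myeloid cells, overlapped 3 regions between Bcl2l11 and Spdye4c. The middle one, chr2:128386801-128397600, was called in all 8 libraries with heights of 28 and 23 in RH MET, 13 and 14 in RH VEH, 25 and 24 in WT MET, and 19 and 20 in WT VEH. In height the 4 MET libraries lay above the 4 VEH libraries. The region at its promoter, chr2:128425201-128432200, was missing only in RH VEH 1, and the third, chr2:128337001-128344000, had an interval in both RH MET libraries, in RH VEH 2 and in both WT MET libraries, and in neither WT VEH library.

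The miRNA genes lay in 5 regions (0.786%, against 1.44% of the other regions), of which 3 were called in all 8 libraries. Mir125b-1 and its host Mir100hg, which also gives miR-100 and let-7a, lay in the gap of Ubash3b. The region over Mir125b-1, chr9:41572801-41589600, had heights of 22 and 21 in RH MET, 12 and 22 in RH VEH, 23 and 24 in WT MET, and 14 and 21 in WT VEH, with RH VEH 1 and WT VEH 1 apart from the rest. A second region, chr9:41367801-41385000, covered the promoter of Mir100hg and was also called in all 8. Mir137 lay in chr3:118428401-118437800, with heights of 21 and 22 in RH MET, 13 and 25 in RH VEH, 23 and 31 in WT MET, and 20 and 22 in WT VEH. Mir124a-2, of the neuronal miR-124 family, lay with Gm51272 and the host Mir124-2hg in chr3:17782801-17799600, with a mean summit percentile of 78.1. Mir3072 was in the Mirg region, and Mir466j was in a region called in RH MET 2, WT MET 2 and WT VEH 2.

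Antigen receptor loci made up 7 of the regions, because their loci and gene segments were not counted among the protein-coding genes. The Tcra locus held 5, of which chr14:54003801-54030000 and chr14:54094201-54109800 were called in all 8 libraries. The first had heights of 20 and 15 in RH MET, 11 and 14 in RH VEH, 20 and 21 in WT MET, and 13 and 15 in WT VEH. The Igh locus held 2, called in 3 and in 2 libraries.

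No difference between genotypes or treatments in the number of regions called passed the test. Libraries called 420 and 378 of the 636 in RH MET, 235 and 359 in RH VEH, 450 and 522 in WT MET, and 312 and 454 in WT VEH. RH libraries called 348 ± 79.5 and WT libraries 435 ± 88.1 (SD, n = 4 each), a difference of -86.5 (exact permutation of 4 against 4, two-sided p = 0.229, adjusted p = 0.429 over 10 tests). MET libraries called 443 ± 60.7 and VEH libraries 340 ± 91.6, a difference of 102.5 (exact permutation p = 0.143, adjusted p = 0.429). Without RH VEH 1 these differences were -49.1 and 66.6, and without WT MET 2 they were -49.1 and 67.2. The smallest p that 4 against 4 can give is 0.0286, and 1 test alone at that value cannot pass after adjustment over 10 tests.

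Covered length behaved the same way. Intervals covered 2682 ± 1044 kb of these regions in RH libraries and 3975 ± 1014 kb in WT libraries (exact permutation p = 0.143, adjusted p = 0.429), and 3697 ± 1252 kb in MET against 2960 ± 1141 kb in VEH libraries (exact permutation p = 0.514, adjusted p = 0.643). Without RH VEH 1 the 2 differences were -826.7 and 177 kb, and without WT MET 2 they were -757.4 and 113.4 kb. The regions took 2.33 and 2.45% of the autosomal covered length in RH MET, 1.68 and 2.78% in RH VEH, 2.72 and 3.28% in WT MET, and 2.42 and 2.76% in WT VEH. The groups overlapped in genotype and in treatment, and RH minus WT was -0.485 points (2.31 against 2.80%; exact permutation p = 0.2, adjusted p = 0.429). MET minus VEH was 0.288 points (2.70 against 2.41%; exact permutation p = 0.514, adjusted p = 0.643). Without RH VEH 1 these differences in share were -0.274 and 0.0421 points, and without WT MET 2 they were -0.295 and 0.0644 points. The summit percentile of intervals was 28.2 in RH and 28.1 in WT (exact permutation p = 0.971, adjusted p = 0.971), and the median interval width 5.2 and 6.4 kb (exact permutation p = 0.257, adjusted p = 0.429). In MET and VEH the percentile was 29.7 and 26.6 (exact permutation p = 0.257, adjusted p = 0.429) and the width 5.55 and 6.05 kb (exact permutation p = 0.743, adjusted p = 0.825).

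**Figure D5:**
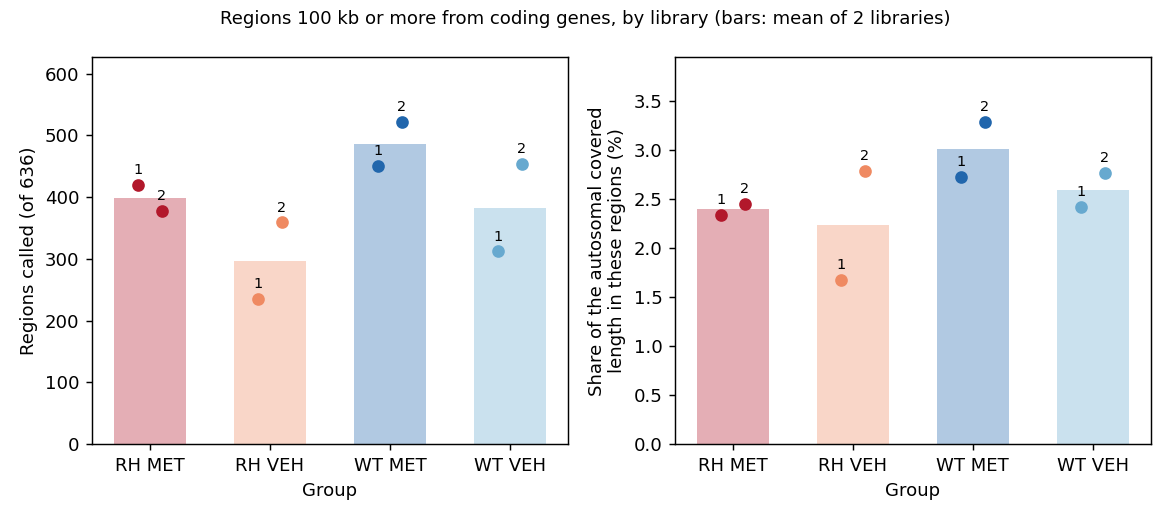
Regions called of 636 (left) and the share of the autosomal covered length that lay in them (right, %) in each library, numbered by replicate, with bars at the mean of the 2 libraries of a group. RH VEH 1 is lowest in both panels with 235 regions and 1.68%, and WT MET 2 highest with 522 and 3.28%.

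Region by region, more were called in 1 group alone in the same directions as over all regions. With metformin, RH MET called 44 regions in both libraries that neither RH VEH library called (6.92%, against 5.64% of all 12274 regions), and the opposite held for 6 (0.943%, against 0.326%). In wild-type cells WT MET alone called 55 (8.65%, against 4.89%) and WT VEH alone 9 (1.42%, against 0.546%). Between genotypes under vehicle, RH VEH alone called 4 (0.629%, against 0.603%) and WT VEH alone 38 (5.97%, against 3.41%). Under metformin RH MET alone called 17 (2.67%, against 1.89%) and WT MET alone 61 (9.59%, against 4.03%). These counts carry no test, since 2 libraries against 2 cannot give a p under 0.333, and each direction with many regions has the group with more called regions on its side. Among the 5 widest in each direction, chr8:12097201-12115200, between Tex29 and A230072I06Rik, had intervals in the 2 RH MET libraries and in no RH VEH library, and chr2:117577401-117609400, between Rasgrp1 and Thbs1, had them in the 2 WT MET libraries and in no WT VEH library. The region chr5:118432401-118439800, between Spring1 and Med13l, was called in both RH MET, both RH VEH and both WT VEH libraries and in neither WT MET library.

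Few regions separated the classes of 4 libraries. No region was called in every RH library and in no WT library, against 0.0407% of all regions. The opposite held for 3 (0.472%, against 0.277%): chr4:125845601-125860200 between Grik3 and Csf3r, chr5:129387401-129395000 between Adgrd1 and Sfswap, and chr8:86202001-86206200 between Phkb and Abcc12. The first had heights of 12 and 13 in WT MET and 8 and 10 in WT VEH, low for any library. Every MET library and no VEH library called 2 (0.314%, against 0.44%): chr12:12722801-12726600 between Cyria and Mycn, the neuroblastoma oncogene that is also active in blood stem cells, and chr3:130896801-130908200 between Rpl34 and Lef1, a Wnt pathway factor gene of lymphocytes. The Lef1 region had heights of 16 and 15 in RH MET and 15 and 16 in WT MET. No region was called in every VEH library and no MET library, and that share was 0.0% of all regions.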

How the data were processed

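H3K27me3 was profiled in 8 libraries of 4 groups by chromatin immunoprecipitation and sequencing, after formaldehyde fixation per the labels. The submitters' processing notes name bcl2fastq 2.20, BWA 0.7.12 and mm10; no caller or filter is named. Per the file headers, the authors deposited intervals and summits per library and merged regions over all libraries. The summit height is a score of the authors, a whole number without a stated unit. Edges fall on multiples of 200 bp. Read depth is unknown, so a library without an interval may still carry the mark.

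Gene spans, biotypes and sequences came from RefSeq (GRCm38.p6). Distance was measured from a merged region to the nearest protein-coding span, without regard to strand. Members against other regions were tested by exact sign flips over 8 libraries, and RH against WT and MET against VEH by exact permutation of 4 against 4, two-sided, with Benjamini-Hochberg adjustment in each family (4 and 10 tests) and a threshold of 0.05. The scripts (Python 3.11.15, pandas 2.3.3, NumPy 2.4.6) were tested on simulated regions. No label says that the replicates are separate mice, and p-values therefore reflect the spread among 8 libraries alone, part of which may be technical.

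The members and the gene families were chosen with earlier results of these data known. Regions were named by a rule: the 10 widest, the 5 farthest and the 10 highest called in all 8 libraries, the 10 widest with a non-coding gene, those with a miRNA gene, those of the 5 gaps with most regions, the 5 widest that separate each pair of groups, and the 3 nearest the limit on either side. Some of them are not described, and 1 of the 10 widest and 1 marker gene are not reported here.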

Additional observations from a re-analysis of the deposited data

How the results depend on the processing

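The differences in width, summit percentile and share called between the regions and the others kept their direction and their side of the threshold under all 8 planned changes to the regions or libraries, leave-one-out included, and at a merged width of 6 to 15 kb and without the antigen receptor loci, both added after seeing the data. 2 calls were lost. With distance measured to every gene, which left 19 regions, the covered share differed by -6.39 points (adjusted exact permutation p = 0.0781). Against other regions outside protein-coding genes, also added later, the share called differed by -2.60 points (adjusted exact permutation p = 0.0625). Leaving out each library gave from -1.6 to -1.51 kb for width, -24.6 to -23 for percentile and -16.2 to -14.9 points for the share called.

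No difference between RH and WT or MET and VEH passed under any setting, which does not show that the groups were alike. For example, MET minus VEH in summit percentile was 5.14 at 200 kb and 6.77 with 4 or more libraries. Both had the smallest possible p (exact permutation p = 0.0286), yet an adjusted p of 0.286. Signs turned, all without a call, in 4 cases. RH minus WT in summit percentile was -5.27 at a minimum height of 15. With equal numbers of intervals per library, 11620, MET minus VEH was -3.45 kb in covered length and -0.0484 points in its share. With distance to every gene MET minus VEH in width was 0.375 kb. The cause was not tested. Leaving out each library gave from -1.83 to 1.66 for RH minus WT in percentile and from -1.18 to 0.0167 kb for MET minus VEH in width. Replicate numbers recur across groups, and the correlations of same-numbered libraries' deviations over the regions ran from 0.0413 to 0.226, with 5 of 6 above 0.1, so that pairing was not established. With the replicate block, RH minus WT was -86.5 regions called (exact permutation p = 0.222) and MET minus VEH 102.5 (exact permutation p = 0.111). The block leaves 36 assignments and no p under 0.0556, so no difference could have passed there.

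The number of regions was 1288 at 50 kb, 218 at 200 kb, 218 at a minimum height of 15, 401 with 4 or more libraries, 415 with equal numbers of intervals and 19 with distance to every gene. Counts in a single group moved with it. At 50 kb they were 13 in RH VEH and 70 in WT VEH, 94 in RH MET and 10 in RH VEH, 119 in WT MET against WT VEH, and 113 in WT MET against RH MET. At 200 kb they were 1 in RH VEH and 14 in WT VEH, 17 in RH MET and 3 in RH VEH, 19 in WT MET against 1 in WT VEH, and 4 in RH MET and 21 in WT MET. At a height of 15 they were 0 in RH VEH and 15 in WT VEH, 0 in RH VEH against RH MET, 27 in WT MET against 1 in WT VEH, and 7 in RH MET and 29 in WT MET. At a cover of 50%, 27 stood in RH MET against RH VEH and 16 in WT VEH against WT MET. With 4 or more libraries, 13 stood in WT MET against 4 in WT VEH, and 6 in RH MET and 16 in WT MET. With equal numbers of intervals, 10 stood in RH VEH and 21 in WT VEH, 18 in RH MET and 16 in RH VEH, 16 in WT MET against 13 in WT VEH, and 12 in RH MET against 22 in WT MET. With distance to every gene they were 0 to 3. Leaving out a library, which leaves 1 against 2, gave 4 to 40 in RH VEH and 38 to 129 in WT VEH under vehicle, 44 to 105 in RH MET and 6 to 44 in RH VEH, 51 to 141 in WT MET against 9 to 32 in WT VEH, and 17 to 43 in RH MET and 58 to 117 in WT MET under metformin. Without RH VEH 1, 40 stood in RH VEH alone against WT VEH and 44 in RH VEH alone against RH MET.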
